A study of Mus musculus with 6 samples.

Results

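The basic helix-loop-helix (bHLH) factors that commit cells to a neuronal fate and then carry them through differentiation were measured in rhombomere 4, the hindbrain segment in which Hoxb1 is expressed. The genes listed were Neurog1, Neurog2, Atoh1, Neurod1, Neurod4, Ptf1a, Olig3, Nhlh1 and Nhlh2, 9 in all, and a probe set was taken when the array annotation gave it 1 of these symbols alone. This gave 11 probe sets of 8 genes, out of 20380 singly named probe sets of 12393 genes. Neurog1, Neurod1 and Neurod4 had 2 probe sets each and 5 genes had 1, while Nhlh2 was not analysed here. The tissue was dissected from mouse embryos at E10.5 (embryonic day) and, per the labels, consisted mainly of rhombomere 4 with surrounding branchial arch tissue. Hoxb1 mutant embryos (3 arrays) were set against wild-type embryos (3 arrays), each array carrying RNA pooled from several embryos and each stated to be an independent biological replicate. The labels do not state the mutant allele, the strain or the sex of the embryos.

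Proneural bHLH proteins bind the E-box, the motif CANNTG, as dimers with the widely expressed E proteins, and the Id proteins, which lack a DNA-binding region, hold E proteins away from them. In a committing cell they switch on Delta-type Notch ligands, and Notch signalling in the neighbours then raises Hes repressors, which keep those neighbours as progenitors. In the hindbrain Olig3, Atoh1 and Ptf1a mark dorsal progenitor territories, Neurog1 and Neurog2 act as determination factors in several dorsoventral domains and in cranial sensory ganglia, and Neurod1, Neurod4, Nhlh1 and Nhlh2 act later, as cells leave the cycle and differentiate.

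Values are intensities on a linear scale, 1 per probe set and array. Bacterial control probe sets, which have no mouse target, had a 95th percentile of 61.5, used here as the background level. Differences are those of log2(intensity + 16), mutant minus wild type, with limma's standard error (SE) and 95% interval, and they understate the change of dim probe sets. Array medians lay between 187 and 214, and the number of arrays limits the precision. Hoxb1 itself gave 60.8, 35.3 and 50.03 in mutants, against 341, 378 and 588 in wild type, with a limma adjusted p of 0.0695. This checks the labels only if the deletion removed the sequence that the probes match, which is not stated. The log2 signal of the 18S ribosomal RNA control probe sets averaged 6.36 to 7.03 on the 3 mutant arrays, and in wild type 6.44 on replicate 1, 12.1 on replicate 2 and 11.3 on replicate 3. The labels and the table name no batch. In pooled tissue, fewer cells of a type and less RNA per cell cannot be told apart.

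Neurod4, a neuronal differentiation factor, had a mutant mean of 52.9% of its wild-type mean in its brighter probe set, while the other 7 measured genes had overlapping groups in every probe set. No member passed the threshold of limma adjusted p under 0.05 (0 of 11 probe sets, and 0 of 22626 on the array, a background of 0%), with adjusted p between 0.615 and 0.991. An unadjusted limma p under 0.05 was reached by 2 of the 11, both of Neurod4 and both lower in mutants. Over all probe sets that unadjusted count was 878 lower (3.88%) and 425 higher (1.88%). The share of lower ones among these was 67.4%, and 51.8% after quantile normalization and 45.9% after centring on array medians. The groups did not overlap in the same 2 probe sets of Neurod4, against 12.0% of all probe sets in either direction and 7.08% with mutants below. By the brightest probe set of each gene, 6 of the 8 genes had a lower mean in mutants and 2 a higher one, with a median difference of -0.19. Over all 12393 genes the median was -0.02, and 54.5% had a lower mean.

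**Figure D1:**
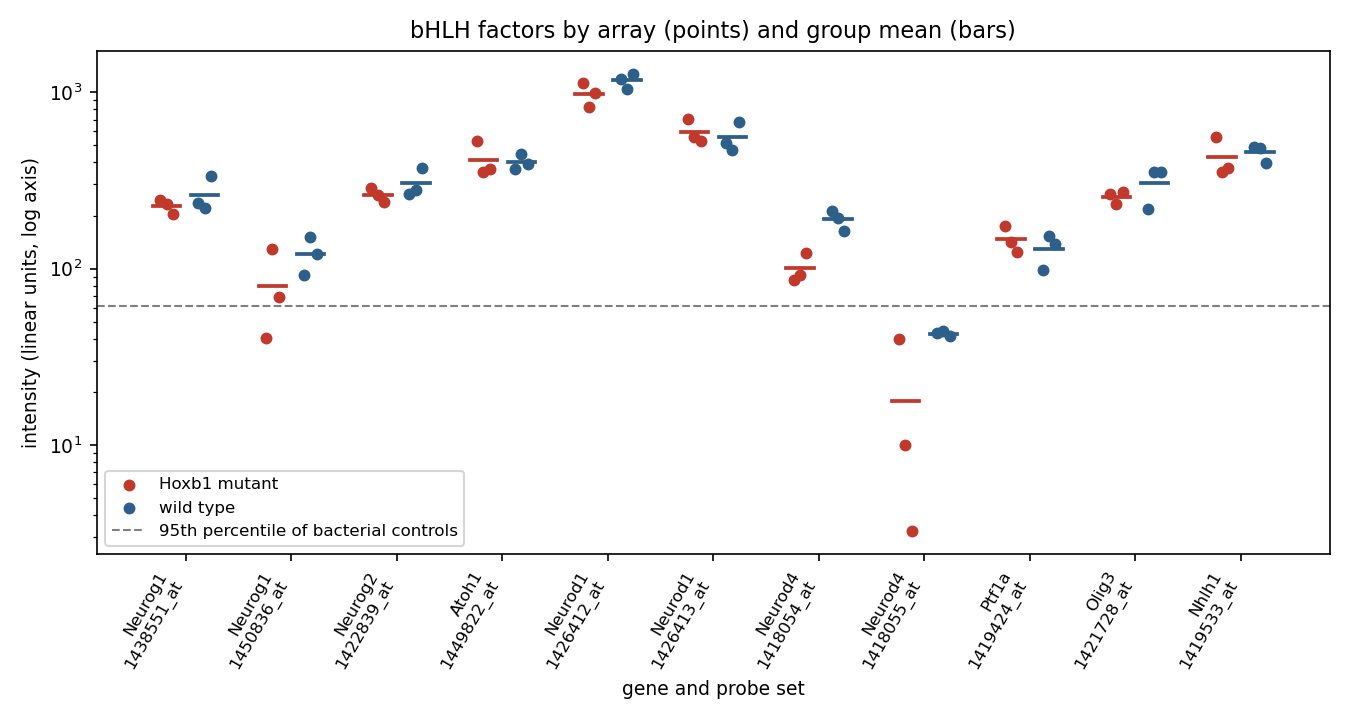
Intensity of each bHLH probe set (log axis) on the 3 Hoxb1 mutant arrays (red, left of each pair) and the 3 wild-type arrays (blue, right), with group means as bars and the 95th percentile of bacterial controls, 61.5, as a dashed line. The groups separate for both Neurod4 probe sets and overlap for the other 9, and the dimmer Neurod4 probe set lies below the dashed line on all arrays.

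Neurod4, also known as Math3, is a differentiation factor related to Neurod1 that acts with other bHLH factors in branchiomotor and other hindbrain neurons. Its brighter probe set, 1418054_at, gave 86.7, 92.6 and 122 in mutants, against 213, 193 and 164 in wild type. All mutant arrays lay below all wild-type arrays, and the highest mutant array and the lowest wild-type array were the closest pair. The mutant mean of 101 ± 19.2 was 52.9% of the wild-type mean of 190 ± 24.6 (SD, n = 3 each). The log2 difference was -0.83 (SE 0.16, 95% interval -1.21 to -0.44), with an unadjusted limma p of 0.00161, rank 58 of 22626, and a limma adjusted p of 0.615. An exact 2-sided permutation test gave 0.1, below which a test of 3 against 3 arrays cannot go.

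The dimmer Neurod4 probe set, 1418055_at, gave 40.1, 10.0 and 3.24 in mutants, against 42.9, 44.0 and 41.5 in wild type. Mutant replicate 1 lay just under the wild-type arrays and the other mutant arrays well under them, but all 6 values were below the background level, so no fold is given. Its limma unadjusted p was 0.0377 and its adjusted p 0.833. The unadjusted p was under 0.05 in 7 of 15 alternative settings, and it was 0.0614 with a pseudocount of 1, 0.163 with the 18S signal as a covariate, 0.193 without wild-type replicates 2 and 3 and 0.0782 to 0.105 with any 1 array other than mutant replicate 1 left out. The order of the mutant arrays was opposite in the 2 probe sets, with replicate 3 the highest in the brighter one and the lowest in the dimmer one.

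For the brighter Neurod4 probe set, wild-type replicate 1, with low 18S signal, was the highest array. With the 18S signal as a covariate the difference was -0.97, with a limma unadjusted p of 0.00580. Without wild-type replicates 2 and 3 the difference was -0.98, with a limma unadjusted p of 0.0109 and the lone wild-type array assumed to vary like the mutants. Over 16 alternative settings the difference ran from -0.98 to -0.63, with unadjusted p from 0.000639 to 0.0109 and adjusted p from 0.305 to 0.916, so the adjusted threshold was missed in all of them.

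The promoter of Neurod4 is shown beside that of its relative Neurod1, since Neurod4 was the member whose groups separated and Neurod1, of the same NeuroD family, was the brightest member. Both windows run from 250 bases before to 50 bases after an annotated start of transcription, on the strand of the gene, from RefSeq on GRCm38.p6, with E-boxes in capitals. The Neurod4 window lies at chr10:130280089-130280388 on the minus strand, and the Neurod1 window at chr2:79456587-79456886 on the minus strand.
Neurod4: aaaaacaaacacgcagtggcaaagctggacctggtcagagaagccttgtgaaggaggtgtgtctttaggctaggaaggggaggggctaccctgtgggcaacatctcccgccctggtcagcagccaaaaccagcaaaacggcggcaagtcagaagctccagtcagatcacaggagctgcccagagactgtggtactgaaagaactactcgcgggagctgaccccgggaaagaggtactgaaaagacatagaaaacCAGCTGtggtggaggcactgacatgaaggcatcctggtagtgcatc
Neurod1: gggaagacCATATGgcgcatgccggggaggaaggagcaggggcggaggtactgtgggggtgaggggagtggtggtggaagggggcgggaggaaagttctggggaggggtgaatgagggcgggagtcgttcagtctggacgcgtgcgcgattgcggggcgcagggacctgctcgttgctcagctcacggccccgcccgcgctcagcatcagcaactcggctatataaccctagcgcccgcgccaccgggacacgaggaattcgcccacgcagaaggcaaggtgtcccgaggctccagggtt

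The Neurod4 window held 1 E-box, CAGCTG, from base +5, and the Neurod1 window held 1, CATATG, from base -242. A window at a further annotated start of Neurod4, which overlaps this one, held none. All 9 listed genes had a promoter entry, 10 windows in all, and windows of 6 genes held CANNTG, a motif present in 72.3% of the 32851 promoter windows of the table. The narrower form CAGATG stood in windows of Nhlh1 and Nhlh2 and in 17.2% of all windows, and CAGCTG in windows of Neurod4 and Nhlh2 and in 16.3%. Both narrower forms are included in the count of CANNTG, and both strands were searched. The bipartite Pbx and Hox motif TGATNNAT was in 0 of the 10 windows and in 8.85% of all windows, which says only that these letters are not in these windows.

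Neurod1, which drives neuronal differentiation in sensory ganglia and hindbrain derivatives, was the brightest member. Its probe set 1426412_at gave 1136, 823 and 991 in mutants, against 1193, 1040 and 1276 in wild type. Mutant replicate 1 lay above wild-type replicate 2, so the groups overlapped, and the difference was -0.25 (SE 0.16, 95% interval -0.63 to 0.12). The probe set 1426413_at gave 707, 555 and 528 in mutants, against 517, 474 and 680 in wild type, a difference of 0.10 (SE 0.18, 95% interval -0.33 to 0.54). The signs of the 2 probe sets differed, and both intervals hold 0.

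Nhlh1, which comes on briefly in newly formed neurons, gave 559, 352 and 374 in mutants, against 489, 484 and 398 in wild type. Mutant replicate 1 was the highest of the 6 arrays and the other mutant arrays were the lowest, so the mutant values spanned those of wild type. The difference was -0.11 (SE 0.20, 95% interval -0.59 to 0.36).

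The determination factors Neurog1 and Neurog2 had lower means in mutants with overlapping groups. Neurog1, in its brighter probe set 1438551_at, gave 246, 234 and 203 in mutants, against 234, 220 and 334 in wild type. Neurog2 gave 286, 261 and 238 in mutants, against 264, 279 and 371 in wild type. In both genes wild-type replicate 3 stood above the other 5 arrays, which were close together, and mutant replicate 3 was the lowest. The differences were -0.18 for Neurog1 (SE 0.18, 95% interval -0.60 to 0.25) and -0.20 for Neurog2 (SE 0.16, 95% interval -0.58 to 0.18). Without wild-type replicate 3 they were -0.0011 and -0.05.

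The dimmer probe set of Neurog1, 1450836_at, gave 40.4, 129 and 69.3 in mutants, against 91.5, 152 and 121 in wild type. Mutant replicate 1 was below the background level, and mutant replicate 2 lay within the wild-type range. The difference was -0.61 (SE 0.35, 95% interval -1.44 to 0.23), the widest interval among the members above background in wild type. Without mutant replicate 2 it was -0.96 and without mutant replicate 1 it was -0.28.

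Among the factors of dorsal territories, Olig3, which is expressed in dorsal progenitors including those of Atoh1 and Ptf1a lineages, gave 265, 232 and 272 in mutants, against 217, 352 and 353 in wild type. The mutant arrays lay between wild-type replicate 1 and the other wild-type arrays, which were the ones of high 18S signal. The difference was -0.22 (SE 0.20, 95% interval -0.71 to 0.27). Without wild-type replicates 2 and 3 it turned to 0.23 and with the 18S signal as a covariate to 0.19, while without wild-type replicate 1 it was -0.44.

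Atoh1, the factor of the rhombic lip that gives rise to granule cell and precerebellar lineages, gave 526, 352 and 366 in mutants, against 367, 449 and 391 in wild type. The mutant arrays spanned the wild-type range, and the difference was 0.02 (SE 0.18, 95% interval -0.41 to 0.46). Without mutant replicate 1, the highest array, it was -0.15.

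Ptf1a, which directs GABAergic and climbing fibre lineages, gave 174, 141 and 125 in mutants, against 97.7, 153 and 138 in wild type. The groups overlapped, with a difference of 0.17 (SE 0.19, 95% interval -0.29 to 0.63). Without wild-type replicate 1 the difference was -0.0026. With the 18S signal as a covariate it was 0.51, with a limma unadjusted p of 0.0449 and an adjusted p that missed the threshold.

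**Figure D2:**
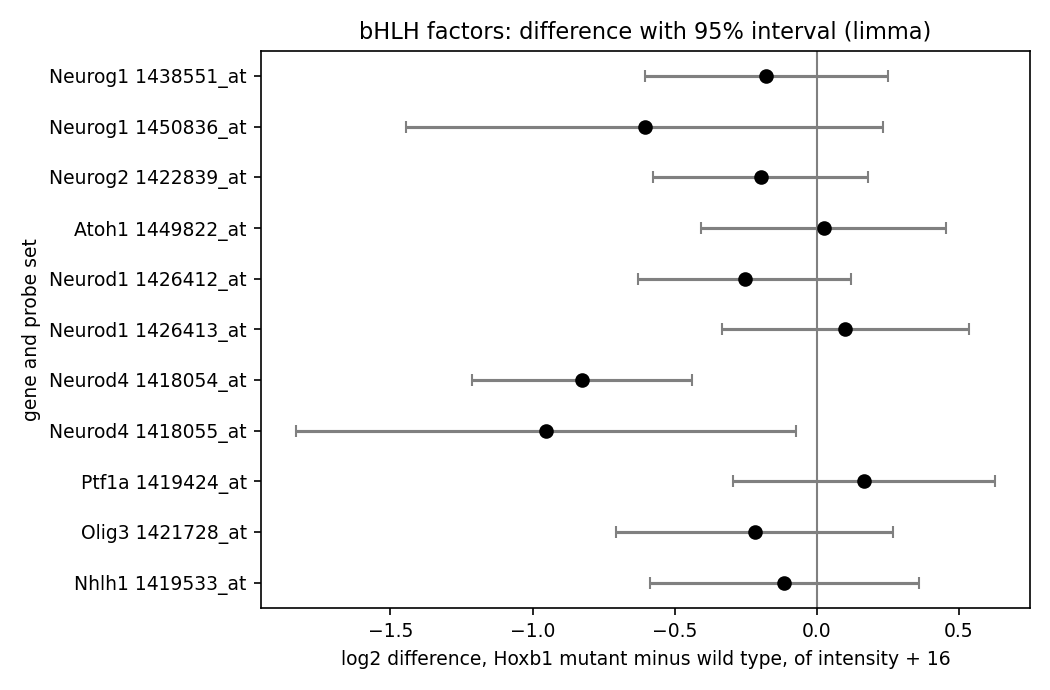
Log2 difference of each bHLH probe set, Hoxb1 mutant minus wild type, of log2(intensity + 16), as points with 95% intervals of the limma fit. The intervals of both Neurod4 probe sets lie below 0, from -1.21 to -0.44 for the brighter one, and those of the other 9 include 0.

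The members were not at their highest or lowest on the same arrays. Of the 11 probe sets, 4 were highest on mutant replicate 1 (Atoh1, Ptf1a, Nhlh1 and 1426413_at of Neurod1) and 4 on wild-type replicate 3 (Neurog2, Olig3 and the brighter probe sets of Neurog1 and Neurod1). By brightest probe sets, mutant replicate 1 was the highest for 3 of the 8 genes, against 23.8% of all 12393 genes. Wild-type replicate 3 was the highest for 4 of the 8, against 21.5% of all genes. Mutant replicates 2 and 3 were the highest for 0 of the 11 probe sets and the lowest for 3 each. By brightest probe sets they were the highest for 9.63% and 13.6% of all genes. The brighter Neurod4 probe set was the lowest on mutant replicate 1, on which several other members were at their highest.

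**Figure D3:**
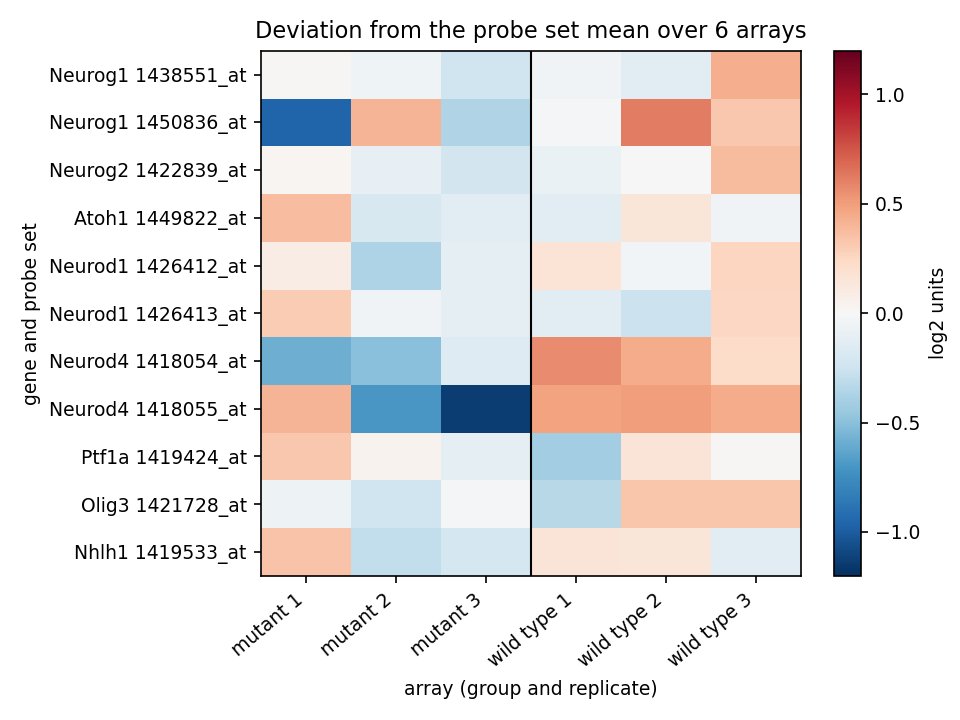
Deviation of each array from the probe set's mean over 6 arrays, in log2 units of log2(intensity + 16), with the mutant arrays left of the black line. The brighter Neurod4 probe set is below its mean on all mutant arrays and above it on all wild-type arrays, while wild-type replicate 3 is raised for Neurog1 and Neurog2 and mutant replicate 1 for Atoh1, Ptf1a and Nhlh1.

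Within each array, the brighter Neurod4 probe set was also set against the brightest probe set of each other member, which removes any factor common to the array. In all 7 comparisons its log2 level relative to the other member was lower in mutants, by differences from -0.99 (against Ptf1a) to -0.57 (against Neurod1). The groups did not overlap in 5 of the 7, with exact 2-sided permutation p of 0.1 each, and they overlapped against Neurog1 and Neurog2, with exact p of 0.2. Adjusted over the 7 comparisons, the exact p were 0.14 and 0.2. All 7 share the values of Neurod4, so they are not independent. Neurod4 had already separated the groups on these same arrays, so the comparisons add no support for it. The same relative level did not overlap against 74.9% of the 12392 other genes, so the separation was about as frequent against the members as against genes at large.

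The partners of these factors were examined next, from a list of the E protein genes Tcf3, Tcf4 and Tcf12 and the inhibitor genes Id1 to Id4. Tcf3, which encodes the E proteins E12 and E47, had lower means in mutants in all 3 of its probe sets, and 0 of the 7 genes passed the limma adjusted threshold. Its brightest probe set, 1426297_at, gave 1510, 1824 and 1887 in mutants, against 2073, 2357 and 2590 in wild type. The probe set 1427764_a_at gave 547, 551 and 740 in mutants, against 1046, 945 and 1148 in wild type. In both, all mutant arrays lay below all wild-type arrays. Over all probe sets 7.08% had mutants below without overlap, and 3.88% were lower at an unadjusted limma p under 0.05.

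The third, 1452542_x_at, gave 134, 160 and 249 in mutants, against 233, 345 and 424 in wild type, where mutant replicate 3 overlapped wild-type replicate 1. The annotation gives 1 sequence record for 1427764_a_at and 1452542_x_at, so they are not independent, and the suffix of 1452542_x_at marks probes that can match other transcripts. The differences were -0.42, -0.77 and -0.83 (SE 0.14, 0.16 and 0.28), with limma unadjusted p of 0.0226, 0.00217 and 0.0225 and adjusted p of 0.833, 0.651 and 0.833. For the brightest probe set the unadjusted p stayed under 0.05 in 10 of 16 alternative settings. It was 0.0613 without mutant replicate 1, 0.0571 without wild-type replicate 2, 0.0692 without wild-type replicate 3 and 0.0698 after centring on array medians. With the 18S signal as a covariate the difference was -0.30 (unadjusted p 0.193), and without both wild-type arrays of high 18S signal it was -0.26 (unadjusted p 0.280). By the brightest probe set of each, the other 6 genes had differences from -0.04 to 0.16. In these probe sets Id1 alone was free of overlap, at 2196, 2199 and 2243 in mutants, against 1984, 2083 and 1860 in wild type. A dimmer Id4 probe set lay outside that range, with a difference of -0.19 (limma unadjusted p 0.239). Tcf3 is given with all its probe sets and the other genes are not, so the coverage is unlike.

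**Figure D4:**
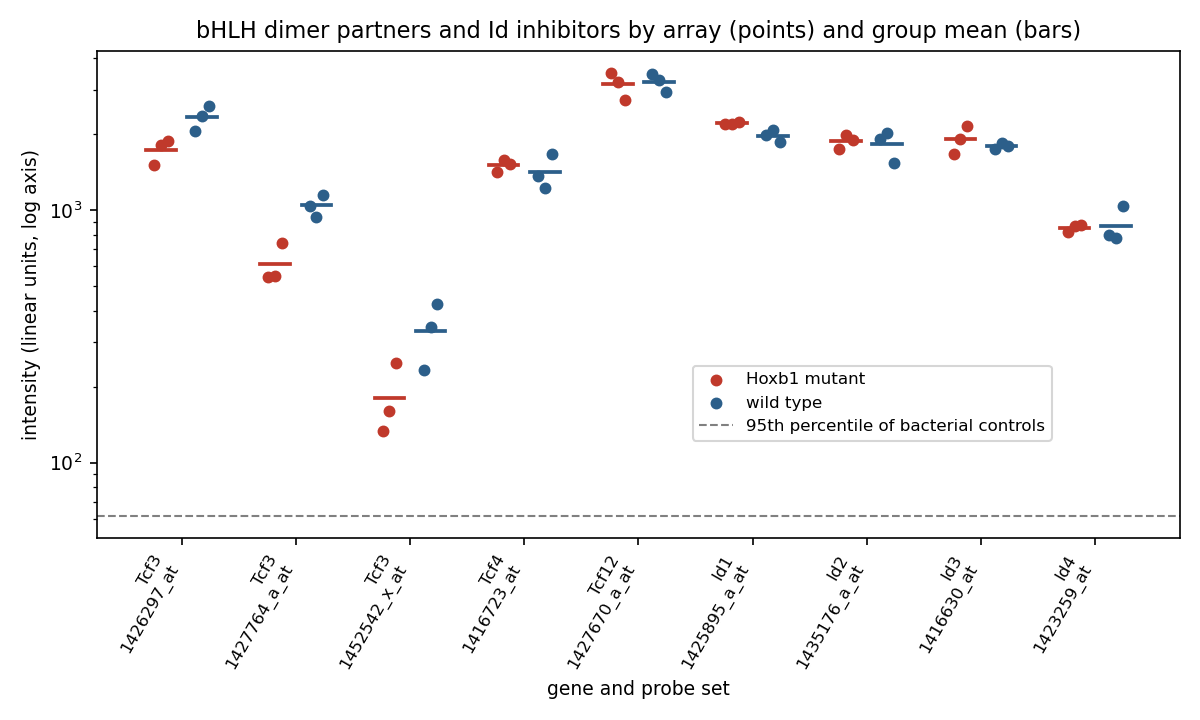
Intensity (log axis) of the probe sets of Tcf3 and of the brightest probe set of each other E protein and Id gene, on the 3 Hoxb1 mutant arrays (red, left of each pair) and the 3 wild-type arrays (blue, right), with group means as bars and the background level of 61.5 as a dashed line. The 3 Tcf3 probe sets are lower in mutants, the first and second without overlap, and the other genes differ by -0.04 to 0.16 on the log2 scale, with Id1 above wild type on all mutant arrays.

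Of the genes that proneural factors act on, a list of 30 targets and genes of neuronal commitment had 27 measured members. In this list 21 had a lower and 6 a higher mean in mutants, with a median difference of -0.19. The lower genes were 21 after quantile normalization, 18 after centring on array medians and 19 to 24 when each array was left out. Wild-type replicate 3 was the highest array for 15 of the 27, against 21.5% of all genes. Over all genes the median was -0.02, and 54.5% had a lower mean. An unadjusted limma p under 0.05 was reached by 3 lower and 1 higher genes, where the background for brightest probe sets is 3.76% lower and 1.70% higher, and 0 passed the adjusted threshold. Dll3, a Notch pathway ligand of the Delta type expressed in committing cells, gave 410, 562 and 541 in mutants, against 643, 723 and 954 in wild type. No mutant array reached the wild-type range, and wild-type replicate 3 was the highest. The difference was -0.59 (SE 0.19), with a limma unadjusted p of 0.0192, which was 0.0541 without wild-type replicate 3, 0.0580 with mutant replicate 1 left out and 0.165 once the 18S signal was a covariate.

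Rnd2, a small GTPase gene that Neurog2 activates in migrating cortical neurons of the mouse, went the other way, at 1671, 1632 and 1717 in mutants, against 1287, 1238 and 1540 in wild type. The groups did not overlap, and the difference was 0.31 (SE 0.12, limma unadjusted p 0.0448). That p was under 0.05 in 6 of 16 alternative settings, and among the others it was 0.0581 after quantile normalization, 0.0518 with a pseudocount of 1, 0.0618 with the replicate block and 0.117 with the 18S covariate. Leaving out any 1 array other than wild-type replicate 3 also ended it, with p from 0.0774 to 0.134. Srrm4, a splicing factor of neuronal exons, lay below the background level on all arrays. Dll1, the main Delta ligand of the neural tube and a target of proneural factors, was named after its values were seen and gave 907, 832 and 791 in mutants, against 940, 952 and 1234 in wild type. Its groups did not overlap, and its difference was -0.29 (SE 0.15, limma unadjusted p 0.0876).

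Of 24 genes of the Notch pathway and of Hes and Hey repressors, 19 had a lower and 5 a higher mean in mutants, with a median difference of -0.10. Dll1, Dll3, Hes6 and Mfng are also in the target list above, so the 2 counts are not independent. The lower genes were 16 after centring on array medians and 17 to 20 when each array was left out. Over all genes 54.5% had a lower mean, and 3.76% were lower and 1.70% higher at an unadjusted limma p under 0.05. Besides Dll3, the unadjusted p was under 0.05 for Hes3, lower, and Jag1, higher, and 0 passed the adjusted threshold. Hes3, a repressor of early neural progenitors and of the midbrain-hindbrain boundary, gave 75.9, 95.5 and 91.8 in mutants, against 122, 123 and 117 in wild type (difference -0.40, SE 0.12). The Notch ligand gene Jag1 gave 328, 315 and 373 in mutants, against 156, 167 and 278 in wild type, in probe set 1421106_at (difference 0.75, SE 0.22). Both were without overlap, but the other Jag1 probe set gave 166 ± 24.8 in mutants and 158 ± 14.5 in wild type (SD, n = 3 each). Hes5, the best known Notch target in neural progenitors and also named after its values were seen, gave 664, 531 and 690 in mutants, against 929, 447 and 794 in wild type, with overlapping groups.

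Of 23 homeobox and other factors that mark interneurons downstream of these bHLH genes, 16 were measured, 10 with a lower and 6 with a higher mean in mutants and a median difference of -0.10. Over all genes 54.5% had a lower mean. The lower genes were 6 of 16 with the 18S signal as a covariate, 7 without both wild-type arrays of high 18S signal and 7 to 12 when each array was left out, so the balance of directions turned with the setting. Gata3, a factor of ventral interneurons, was the member with an unadjusted p under 0.05, at 98.9, 78.2 and 99.1 in mutants, against 130, 139 and 151 in wild type (difference -0.53, SE 0.13, limma unadjusted p 0.00526, adjusted p 0.719). Its groups did not overlap. Barhl1 and Lhx9, which follow Atoh1 in dorsal interneurons and were named after their values were seen, had differences of 0.02 and 0.14 (SE 0.24 and 0.13), and Lbx1, of the lineages that express Ptf1a and others, -0.13 (SE 0.17).

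**Figure D5:**
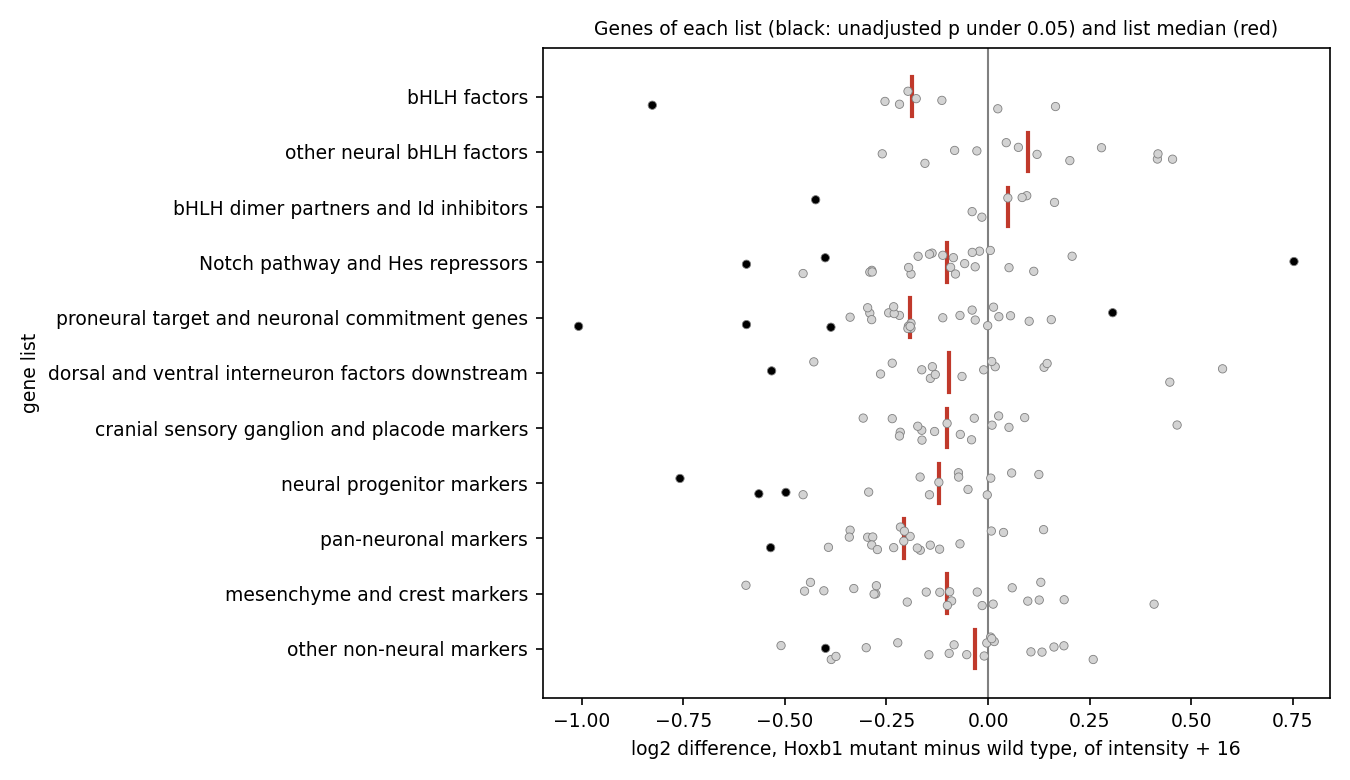
Log2 difference, Hoxb1 mutant minus wild type, of the brightest probe set of each gene in the bHLH set and in 10 other gene lists, with black points at an unadjusted limma p under 0.05 and the list median as a red bar. Neurod4 lies apart from the other bHLH factors of the set at -0.83. Medians run from -0.21 for pan-neuronal markers to 0.10 for the list labelled other neural bHLH factors.

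Several of these genes are shared by other tissues in the dissection, so marker lists are given beside them. The lists share genes with each other and with those above, so their counts are not independent. Tubb3, Elavl3, Elavl4, Dcx and Stmn2 are both targets and pan-neuronal markers, and Notch1 and Hes5 are both Notch pathway genes and progenitor markers. Isl1, Tlx3 and Insm1 are ganglion markers that stand in earlier lists too. Over all genes, by brightest probe sets, 54.5% had a lower mean in mutants. At an unadjusted limma p under 0.05, 3.76% were lower and 1.70% higher. Of 17 measured markers of cranial sensory ganglia and placodes, where Neurog1, Neurod1 and Neurod4 are also expressed, 12 had a lower mean in mutants and 0 an unadjusted p under 0.05. Their summed intensity was 4408 to 5070 in mutants and 5023 to 5362 in wild type, and Avil, a sensory neuron marker, was at or below the background level on all arrays. Of 21 pan-neuronal markers 18 had a lower mean, with Cntn2, an axonal adhesion gene, at an unadjusted p under 0.05 (208, 145 and 156 in mutants, against 198, 266 and 295 in wild type), and the sum was 18476 to 23857 in mutants and 22214 to 27429 in wild type. Wild-type replicate 3 was the highest array for 13 of these 21 genes, against 21.5% of all genes.

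Of 15 progenitor markers 12 had a lower mean, against 54.5% of all genes. The lower genes were 13 after quantile normalization, 10 after centring on array medians and 9 to 12 when each array was left out. Wild-type replicate 3 was the highest array for 8 of the 15, among them Sox3, Sox21 and Msi1, against 21.5% of all genes. Sox3, Sox21 and Msi1 were at an unadjusted p under 0.05, all lower, against 3.76% of all genes. The sum was 25119 to 25951 in mutants and 26407 to 29710 in wild type. Its largest part was Vim, at 11233, 10734 and 10880 in mutants, against 11410, 11404 and 11719 in wild type. Sox3, a SoxB1 factor that holds cells in the progenitor state, gave 548, 633 and 642 in mutants, against 840, 970 and 1367 in wild type, without overlap. The RNA-binding progenitor gene Msi1 gave 1058, 1162 and 1267 in mutants, against 1369, 1593 and 2033 in wild type, in probe set 1452287_at. Its p was under 0.05 in 10 of 16 alternative settings, and the other Msi1 probe set, 1421409_at, gave 133 ± 84.0 in mutants and 136 ± 46.3 in wild type (SD, n = 3 each) with overlapping groups. Sox21 gave 348 ± 41.4 in mutants and 527 ± 115 in wild type (SD, n = 3 each). Of 23 mesenchyme and crest markers 16 had a lower mean and 0 an unadjusted p under 0.05, with sums of 17603 to 18175 in mutants and 18410 to 20638 in wild type. A list labelled other non-neural held 20 measured markers, among them Sox10, a factor of crest and glia, and Foxd3, also counted among the interneuron factors. Of these 20 markers 12 had a lower mean, with Sox10 at an unadjusted p under 0.05 in its brightest probe set (345 ± 33.1 in mutants and 460 ± 36.2 in wild type, SD, n = 3 each). The Sox10 probe sets 1424985_a_at and 1425369_a_at had overlapping groups, with differences of -0.26 and -0.24 and limma unadjusted p of 0.0930 and 0.180. The 20 markers summed to 42371 to 46266 in mutants and 38592 to 44374 in wild type. Most of that sum came from the 3 embryonic globin genes Hba-x, Hbb-bh1 and Hbb-y, at 36325 to 40293 in mutants and 32965 to 38218 in wild type, and the other 17 genes summed to 5829 to 6047 in mutants and 5627 to 6674 in wild type. With the 18S signal as a covariate, which was high on 2 of the 3 wild-type arrays, Jag1 was the only 1 of the 12 list genes named by their unadjusted p to stay under 0.05. The p was then 0.0842 for Sox3, 0.155 for Sox21, 0.237 for Msi1, 0.0580 for Hes3, 0.343 for Cntn2, 0.171 for Sox10 and 0.0618 for Gata3. Their signs did not change, and without both of these wild-type arrays Jag1 was again the only 1 of the 12 under 0.05. The part of these differences in the values of Neurod4 and Tcf3 was not tested.

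For each member, the genes of most similar pattern over the 6 arrays were taken as the 3 of highest Pearson r among 10448 singly named probe sets brighter than the median. Picked from so many candidates over 6 arrays, they had r from 0.946 to 1.00 for all 8 members, and r is given as a description. For Neurod4 they were Ccdc107 (r = 0.978), Col6a1 (0.948) and Rab5c (0.946). For Neurog1 they were Rtn1 (0.991), Pde4dip (0.989) and Oga (0.984), and for Neurog2 Chkb (0.994), Sec16a (0.993) and Id4 (0.988).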

How the data were processed

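The deposited values are linear intensities, 1 for every probe set on every array. Per the submitters' processing notes the tool affy was used, with no version. How probe signals were summarised and background was corrected is not given in the sources consulted. The deposited values show a scaling step, since the mean with 2% trimmed at each end was 500.0 on every array. Of 22690 probe sets, 64 Affymetrix controls were left out and 22626 tested. Symbols came from the platform annotation, updated through the Entrez identifier with a RefSeq table of GRCm38.p6 for 20351 of 20380 singly named probe sets, and 691 listed with several genes were not named. Background came from 27 bacterial probe sets.

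Groups were compared in limma 3.58.1 (R 4.3.3; 2-sided, lmFit then eBayes with no trend, no covariate) on log2(intensity + 16), with p-values adjusted by Benjamini-Hochberg over the 22626 probe sets, a step tested on simulated data. The median SE of a log2 difference was 0.16. Correlations between arrays were 0.976 to 0.984 within groups, and 0 pairs held identical values. In lists, the probe set of highest mean stood for a gene. Named were all members, Hoxb1, up to 3 list genes of smallest unadjusted p under 0.05, and genes of most similar pattern. Members and lists were chosen with earlier results of these data known. Alternatives covered normalization, centring, pseudocount, a filter on dim probe sets, eBayes settings, array weights, a replicate block, the 18S signal and leaving out arrays.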

Additional observations from a re-analysis of the deposited data

How the results depend on the processing

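Over 16 alternative settings, the count of bHLH probe sets at a limma adjusted p under 0.05 stayed at 0 in each. At an unadjusted p under 0.05 the count was 2 with the settings used throughout. It was 1 with a pseudocount of 1, 1 without the dimmest 33.3% of probe sets (which removes the dimmer Neurod4 probe set) and 1 without both wild-type arrays of high 18S signal, where 1 wild-type array is left, and it ran from 1 to 2 when each array was left out. With the 18S covariate it was 2, of which 1 was lower (Neurod4) and 1 higher (Ptf1a). Probe sets without overlap between groups numbered 2 of 11 (12.0% of all probe sets), against 1 of 10 without the dimmest 33.3% (13.02% of all), 6 without both wild-type arrays of high 18S signal (44.0% of all), and 2 to 6 when each array was left out (19.3% to 29.0% of all), where fewer arrays overlap less often by construction. The replicate block gave 3 at an unadjusted p under 0.05, adding the dimmer Neurog1 probe set. Whether replicate numbers pair the arrays could not be decided from so few arrays per group. Deviations of same-numbered arrays correlated at -0.02 to 0.05. Of the 3 mutant arrays 2 correlated best with their own number, as did 2 of the 3 wild-type arrays. The sample titles also carry codes with the same numbers in both groups, whose meaning is not stated.

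Direction turned for 5 of the 11 member probe sets, and the cause was not tested. Atoh1 gave -0.077 with array weights and -0.15 to 0.13 when each array was left out. Olig3 gave 0.19 with the 18S covariate and 0.23 without both wild-type arrays of high 18S signal. With each array left out, the dimmer Neurod1 probe set gave -0.024 to 0.25, Ptf1a -0.0026 to 0.28 and Nhlh1 -0.31 to 0.0078. The sign of each member held under quantile normalization and under centring on array medians. Dim values limit the second probe sets of Neurod4 and Neurog1, of which 0 and 5 of 6 arrays exceeded the background level.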

Other observations

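Other bHLH genes outside the set were listed under the label other neural bHLH factors. The list is not purely neural, since it also holds Mesp1, Msc and Ascl2, and Msc had its largest difference, at 0.45. Of 14 listed, 12 were measured, 4 with a lower and 8 with a higher mean in mutants, and a median log2 difference of 0.10. Over all genes 54.5% had a lower mean. In the list 0 genes had a limma unadjusted p under 0.05 or an adjusted p under 0.05. Ascl2, Neurod6, Olig1 and Olig2 were at or below the background level on all 6 arrays, and of these Ascl2, Olig1 and Olig2 were among the genes with a higher mean. Tal2, also higher, exceeded that level on 1 mutant and 1 wild-type array. Olig2 marks progenitors of somatic motor neurons and oligodendrocytes. Tal1, a factor of ventral interneurons and of blood cells, gave 228, 195 and 317 in mutants, against 212, 237 and 150 in wild type, and Neurod2, a late differentiation factor, gave 273, 180 and 136 in mutants, against 184, 253 and 109 in wild type. Both had overlapping groups, and both were named after their values were seen. Leaving out each array moved the number of lower genes in this list from 1 to 7 of 12, so its balance of directions depends on single arrays. The genes of most similar pattern to the remaining members were Myh14, Epha7 and Ppcdc for Atoh1, Tspan5, Kctd10 and Gbf1 for Neurod1, Usp2, Atg14 and Lmo2 for Ptf1a, Pard3, Cbx2 and Rad50 for Olig3, and Tyk2, Sod2 and B4galt6 for Nhlh1, with Pearson r from 0.976 to 1.00 over 6 arrays.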
